A study of Sus scrofa with 4 samples.

Results

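The genes described are those of the cytosolic ribosomal proteins, the proteins that form the large and the small subunit of the ribosome outside mitochondria. A probe was taken as theirs when the RefSeq accession that the scanner output gives it belongs to a pig gene whose symbol starts with RPL or RPS followed by a digit, or is RPSA, RPLP0, RPLP1 or RPLP2, and kinases of the RPS6K type were left out. This gave 187 probes of 37 genes, among 43597 probes on the array and 3020 genes that could be named. The rule goes by symbol, so it also took in paralogs such as RPL7L1. Whether their proteins are part of the finished ribosome was not tested. The RefSeq table lists 84 symbols that follow the rule, and 47 of them, RPS6, RPS27A and RPLP1 among them, had no named probe.

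Thymus RNA of Minnesota miniature swine was measured on 4 one-colour Agilent arrays. The 2 KO arrays carried RNA labelled IL2RG+/-, from pigs cloned by nuclear transfer out of cells in which a TALEN pair had cut exon 2 of 1 copy of the gene, and the 2 WT arrays carried RNA of wildtype pigs. According to the study, most KO pigs had no thymus, and the arrays are of those with a rudimentary one, so that the KO samples are animals selected for still having the tissue. Age and sex of the array animals are not given in the sources used here, and neither is the number of WT animals, so the p-values measure the spread between these samples.

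A ribosome is built from ribosomal RNA and about equal amounts of each ribosomal protein, and growing and dividing cells spend much of their transcription on it. The mRNAs of these proteins begin with a pyrimidine tract through which mTOR signalling controls their translation together, and they are among the most abundant mRNAs of nearly every cell. In the thymus, precursors that pass selection on a rearranged T cell receptor beta chain divide rapidly, and in mice loss of the large subunit protein RPL22 blocks the development of alpha beta T cells.

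Signals are given on a log2 scale relative to the 75th percentile of each array, and differences are log2 fold changes of KO minus WT. IL2RG itself, the targeted gene, had signals of -3.14 and -3.27 in KO replicates 1 and 2 and of -0.12 and 0.53 in WT replicates 1 and 2, and the log2 fold change was -3.41 ± 0.27 (SE, n = 2 arrays per genotype; limma, Benjamini-Hochberg adjusted p = 0.00255). The KO arrays had 73.5% and 74.5% of probes well above background and the WT arrays 67.9% and 68.2%, and no spot was saturated. Slide 1 held KO replicate 1 beside WT replicate 2, and slide 2 held the other arrays. Of the 31959 probes tested, 7226 (22.6%) were lower and 8110 (25.4%) higher in KO at an adjusted p under 0.05, and the median log2 fold change of all tested probes was -0.05.

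Many ribosomal protein probes were lower in the KO thymus, by a small amount, and none was higher. All 187 probes were well above background on all 4 arrays, and all were tested. Their median signal was 7.06 and 7.16 in KO replicates 1 and 2, and 7.69 and 7.58 in WT replicates 1 and 2. The KO medians both lay below the WT medians. At 77 probes (41.2%, beside 22.6% of all tested probes) the signal was lower in KO at a limma adjusted p under 0.05, and at 0 it was higher, beside 25.4%. Without adjustment 117 of the 187 (62.6%) had a limma p under 0.05, which is near the 56.6% of all tested probes that had one in either direction. A further 46 probes had an adjusted p between 0.05 and 0.1, as had 3359 of the 31959 tested probes. The lowest adjusted p was 0.00983. In bulk tissue, fewer cells of a type and less mRNA per cell cannot be told apart. When KO replicate 1 or KO replicate 2 was left out, 0 probes passed, with a lowest adjusted p of 0.0879 and 0.094, while 6.77% and 6.51% of all tested probes were still called lower. At these 2 settings the remaining KO array was assumed to vary like the WT arrays. Without WT replicate 1 there were 59 probes lower (31.6%, near the 27.6% of all tested probes), and without WT replicate 2 there were 70 (37.4%, beside 20.7%).

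The median log2 fold change of the 187 probes was -0.49, which is 1.41-fold lower, against -0.05 over all tested probes. Their quartiles of -0.62 and -0.34 lay close together, whereas those of all tested probes were -0.61 and 0.86. The difference was negative at 186 probes, beside 52.5% of all tested probes, and 1 probe of RPL6 stood at 0.08. Bright probes outside the named members were mostly negative too. Of these other probes, 82.6% were negative at mean signals of 7 to 8 and 93.2% at 8 to 10. At 5 to 6 the share was 63.2%. The other probes include unnamed ones, and whether ribosomal protein probes are among them was not tested. Both KO arrays lay below both WT arrays at 173 probes (92.5%, beside 40.9% of all), and at 0 probes did both lie above, beside 37.9% of all. Neither the quartiles nor these shares were set beside probes of like signal. Only 1 probe passed a change of 2-fold, beside 13.0% of all tested probes that were lower by that much, and it was the dimmest probe of RPL7L1, at -1.02.

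The size of the difference depended on the scaling of the arrays. With the median of each array in place of its 75th percentile, the median of all tested probes moved to -0.32 and that of the ribosomal protein probes to -0.76, and 155 probes (82.9%, beside 33.2%) were called lower. With quantile normalization the medians were -0.14 and -0.28, with 175 of 187 probes negative and 22 called lower, 11.8% of the ribosomal protein probes beside 25.1% of all tested probes. Relative to the median of all probes, the ribosomal protein probes lay at -0.44 as scaled here. Median scaling shifts every log2 fold change by the same amount, so its value of -0.44 was fixed in advance. They lay at -0.14 with quantile normalization. The share called lower was therefore above the background under the first 2 scalings and below it under the last. In the log2 table that the authors deposited, 28 probes (15.0%, beside 25.6%) were called lower, and the median was -0.28. With the normexp background correction 109 probes were called (58.3%, beside 23.9%), with probes kept only if well above background on all 4 arrays 86 (46.0%, beside 25.8%), without a filter on dim probes 34 (18.2%, beside 12.9%) and with an intensity trend in the fit 133 (71.1%, beside 24.6%). The methods' t-test called 117 probes lower unadjusted (62.6%, beside 22.1%), 20 probes (10.7%, beside 3.35%) with the Benjamini-Hochberg adjustment and 0 with Bonferroni, beside 0.00313%. With the replicate number as a block 5 probes (2.67%, beside 14.8%) were called. No ribosomal protein probe was called higher under any of these settings.

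**Figure D1:**
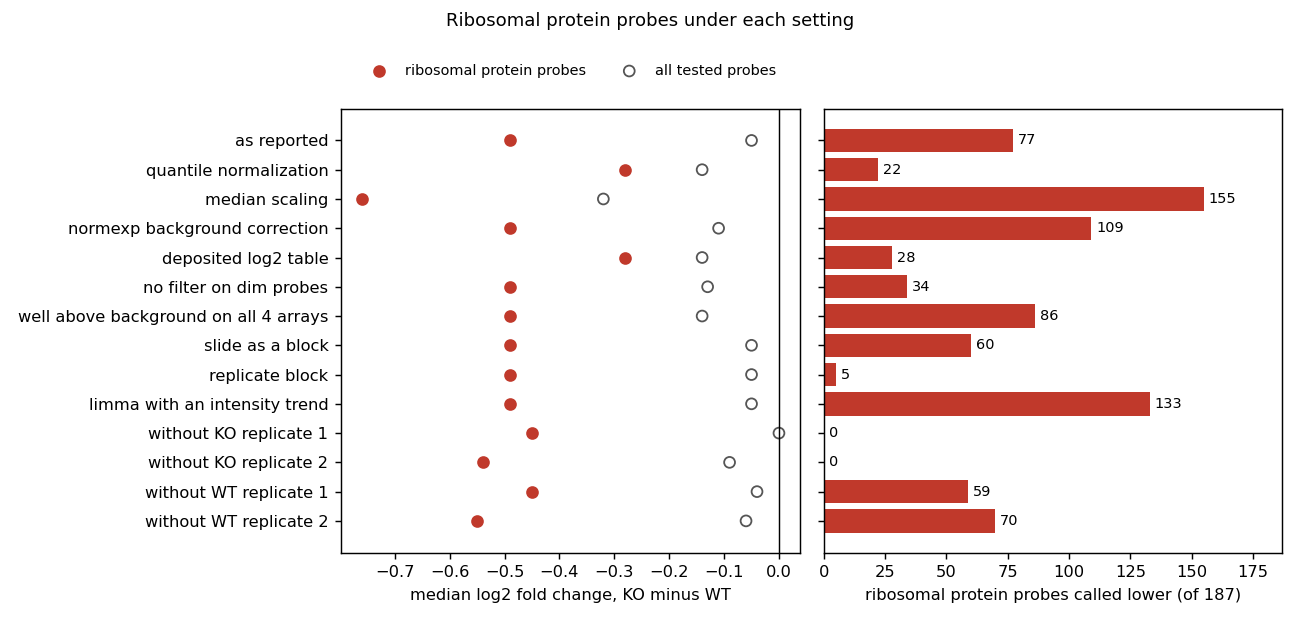
Median log2 fold change of KO minus WT (left, filled circles for the 187 ribosomal protein probes and open circles for all tested probes) and number of ribosomal protein probes called lower at a limma adjusted p under 0.05 (right), for each way of processing the arrays. The filled circle lies to the left of the open one in every row, by 0.44 as reported and by 0.14 with quantile normalization, while the number called ranges from 0 to 155.

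Within each slide the KO array was also the lower one. On slide 1 the median difference was -0.48, with 183 of 187 probes negative, and on slide 2 it was -0.50, with 185 negative. At 182 probes (beside 46.3% of all tested probes) the difference was negative on both slides. With the slide as a block in the fit, 60 probes (32.1%, beside 22.6% of all tested probes) were lower, of which 59 were among the 77. The arrays of slide 2 read these probes slightly higher within each genotype. KO replicate 2 exceeded KO replicate 1 at 162 probes, by a median of 0.09, and WT replicate 1 exceeded WT replicate 2 at 145 probes, by a median of 0.11. Both held together at 133 probes (71.1%), beside 30.6% of all tested probes. The offsets are smaller than the median difference between genotypes on either slide.

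For the comparison between genes, each gene was represented by its brightest probe. All 37 genes had a negative log2 fold change, from -0.85 to -0.06 with a median of -0.45, and 8 genes were lower (21.6%, beside 22.6% of all tested probes). Of the other probes at signals of 8 to 10, 93.2% were negative too. Both KO arrays lay below both WT arrays at 34 of the 37 genes, the exceptions being RPS10, RPL23 and RPS28. Genes were assigned to a subunit by the start of their symbol, paralogs included. The 21 genes of the large subunit had a median of -0.45 with 6 lower, and the 16 genes of the small subunit had a median of -0.46 with 2 lower. When the mean of all probes of a gene was used in place of the brightest, 10 genes were lower and the median was -0.49. RPS4X (limma adjusted p = 0.0502) and RPL27 (0.0522) were then no longer called. RPL11 (0.0318), RPSA (0.0327), RPS15 (0.0478) and RPS16 (0.0491) were called in addition. The share of genes called by their brightest probe was near the background, and the medians of the subunits were not tested against each other.

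**Figure D2:**
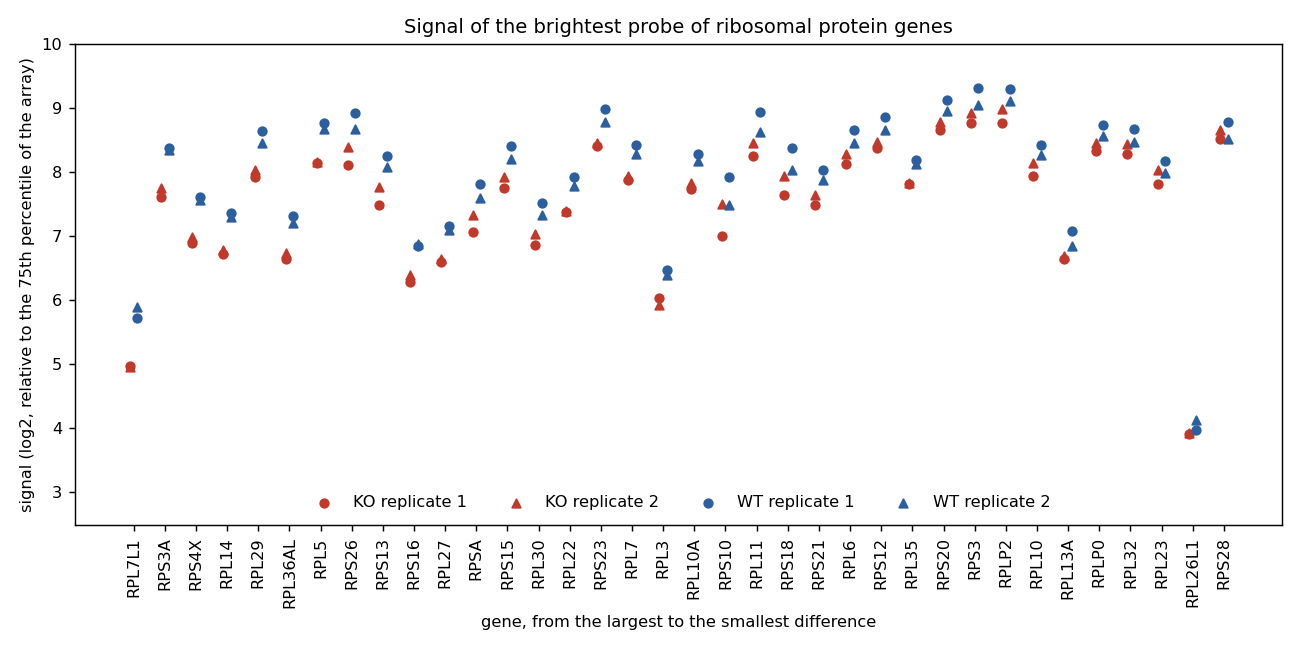
Signal of the brightest probe of 36 of the genes on every array (red for KO, blue for WT, circles for replicate 1 and triangles for replicate 2), on a log2 scale relative to the 75th percentile of the array, ordered by the difference. Red points lie below blue ones at 33 genes, the distance shrinks from -0.85 at RPL7L1 to -0.06 at RPS28, and with quantile normalization RPL23, RPL26L1 and RPS28 change sign.

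Among the genes grouped with the large subunit, RPL7L1, a paralog of RPL7, had the largest difference. RPL7L1 was grouped by its symbol alone, and whether its protein is part of the finished subunit was not tested. It read 4.97 and 4.96 in KO replicates 1 and 2, and 5.72 and 5.89 in WT replicates 1 and 2. The KO arrays were nearly equal and lay well below the WT arrays, with a log2 fold change of -0.85 ± 0.16 (SE; adjusted p = 0.0159). All 3 of its probes were lower, between -1.02 and -0.85. Of the 8 genes called, it was the one whose call held with quantile normalization, in the deposited log2 table and without the filter on dim probes. With the replicate number as a block its adjusted p was 0.0514, and without KO replicate 1 or 2 it was 0.128 and 0.135.

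RPL5 and RPL11 are the proteins that carry 5S ribosomal RNA into the large subunit and that bind MDM2 when ribosome assembly is disturbed. The brightest RPL5 probe read 8.14 and 8.16 in KO against 8.77 and 8.68 in WT, so that the genotypes did not overlap, with a log2 fold change of -0.57 ± 0.15 (SE; adjusted p = 0.0378). All 18 RPL5 probes were lower, from -0.96 to -0.57, with adjusted p from 0.00983 to 0.0386. RPL11 read 8.25 and 8.46 in KO against 8.94 and 8.62 in WT at its brightest probe. Its WT arrays differed by more than WT replicate 2 did from KO replicate 2, and the log2 fold change of -0.42 ± 0.20 did not pass (adjusted p = 0.143). The other 2 RPL11 probes were lower, at -0.83 and -0.82.

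The other large subunit genes that were called are RPL14, RPL29, RPL36AL and RPL27. RPL14 read 6.72 and 6.79 in KO against 7.36 and 7.30 in WT (log2 fold change -0.58 ± 0.15, SE; adjusted p = 0.0371). RPL29 read 7.92 and 8.03 in KO against 8.64 and 8.46 in WT (-0.57 ± 0.16; adjusted p = 0.0457). RPL36AL, a paralog of RPL36A, read 6.65 and 6.73 in KO against 7.31 and 7.21 in WT (-0.57 ± 0.15; adjusted p = 0.0405). In each of these the KO arrays lay within about 0.1 of each other and below both WT arrays. RPL27 was at the edge of the threshold, with 6.59 and 6.65 in KO, 7.16 and 7.10 in WT and an adjusted p of 0.0498. With quantile normalization the adjusted p of these 4 genes lay between 0.0982 and 0.133.

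RPL22, whose loss blocks the development of alpha beta T cells in mice, read 7.38 and 7.40 in KO against 7.92 and 7.78 in WT. The genotypes did not overlap, but the log2 fold change of -0.46 ± 0.16 (SE) did not pass the threshold (adjusted p = 0.0687), and none of its 3 probes, at -0.48 to -0.45, was called. RPL3, which reaches toward the peptidyl transferase centre, was among the 3 dimmest genes and read 6.03 and 5.93 in KO against 6.47 and 6.39 in WT (-0.45 ± 0.15; adjusted p = 0.0725). It did not pass either. RPL7 stood at -0.45 (adjusted p = 0.0747), RPL10A at -0.45 (adjusted p = 0.0754) and RPL30 at -0.47 (adjusted p = 0.0843). These genes lay at the median of the family, and 4 of the 14 RPL7 probes, 3 of the 8 RPL10A probes and 1 of the 3 RPL30 probes were lower.

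The smallest differences of the large subunit were those of the stalk proteins, RPL10, RPL13A, RPL32, RPL23 and RPL26L1. RPLP0 and RPLP2 form the stalk that recruits elongation factors. RPLP2 was the brightest gene of the family, with 8.76 and 8.98 in KO against 9.29 and 9.11 in WT (log2 fold change -0.32 ± 0.18, SE; adjusted p = 0.198), and RPLP0 read 8.33 and 8.46 in KO against 8.73 and 8.56 in WT (-0.25 ± 0.17; adjusted p = 0.269). Neither passed, although the KO arrays were the lower ones at each of the 13 RPLP0 probes. RPL6 at -0.36, RPL35 at -0.34, RPL10 at -0.30 and RPL32 at -0.21 did not pass either. RPL13A, a protein that can be released from the ribosome to silence inflammatory mRNAs, stood at -0.29 (adjusted p = 0.224). RPL23 read 7.82 and 8.04 in KO against 8.17 and 7.99 in WT, so that KO replicate 2 lay above WT replicate 2. RPL26L1, a paralog of RPL26 and the dimmest gene, read 3.92 and 3.93 in KO against 3.98 and 4.13 in WT (-0.13 ± 0.16; adjusted p = 0.523). The paralogs thus stood at both ends of the family, RPL7L1 at the top and RPL26L1 near the bottom, a difference that was not tested.

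Among the genes of the small subunit, RPS3A and RPS4X were lower. RPS3A, which lies near the exit of the mRNA channel, read 7.61 and 7.76 in KO against 8.37 and 8.34 in WT, which gives a log2 fold change of -0.67 ± 0.16 (SE; adjusted p = 0.0278), and all 8 of its probes were lower, between -0.79 and -0.66. RPS4X, the X-linked copy of RPS4, read 6.89 and 6.99 in KO against 7.61 and 7.57 in WT, which gives a log2 fold change of -0.65 ± 0.15 (adjusted p = 0.0278). In both genes the WT arrays differed by less than 0.1 and the KO arrays lay clearly below them.

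RPSA, which is also known as the laminin receptor, read 7.07 and 7.33 in KO against 7.82 and 7.59 in WT (log2 fold change -0.51 ± 0.19, SE; adjusted p = 0.0889). The genotypes did not overlap, and 4 of its 6 probes were lower. RPS26 and RPS10, in which mutations cause Diamond-Blackfan anaemia in humans, stood at -0.54 (adjusted p = 0.081) and -0.45 (adjusted p = 0.228). For RPS10 the brightest probe read 7.01 and 7.50 in KO against 7.93 and 7.48 in WT, and the WT replicate 2 array lay between the KO arrays. Of its 5 dimmer probes 4 were lower, from -0.71 to -0.54.

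The bright genes RPS3 and RPS20 had small differences. RPS3, a protein at the entry of the mRNA channel, read 8.76 and 8.93 in KO against 9.31 and 9.04 in WT (log2 fold change -0.33 ± 0.18, SE; adjusted p = 0.20), and RPS20 read 8.65 and 8.79 in KO against 9.12 and 8.96 in WT (-0.33 ± 0.17; adjusted p = 0.17). At both genes the KO arrays were the lower ones. RPS28 had the smallest difference of the family. It read 8.52 and 8.66 in KO against 8.79 and 8.51 in WT, which gives a log2 fold change of -0.06 ± 0.18 (adjusted p = 0.80), and the genotypes overlapped at all 3 of its probes, which stood between -0.06 and -0.05. Of the other genes of the small subunit, RPS12, RPS13, RPS15, RPS16, RPS18, RPS21 and RPS23 lay between -0.53 and -0.34, and none passed at its brightest probe.

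**Figure D3:**
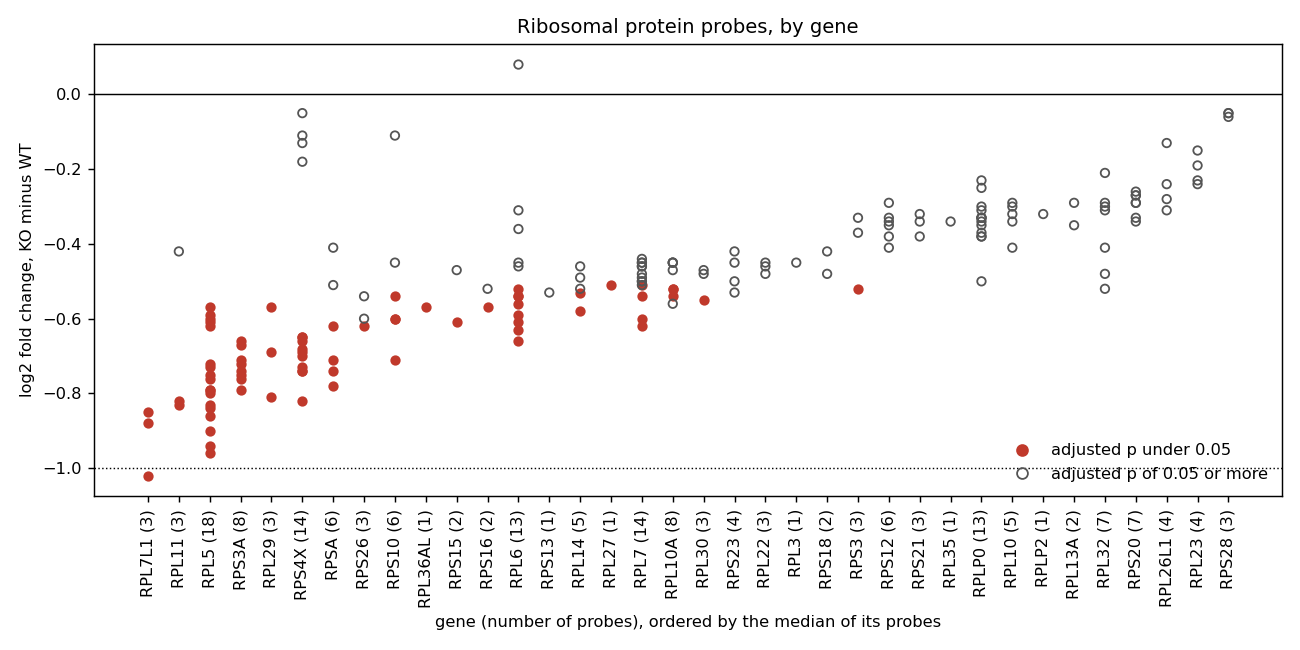
Log2 fold change of KO minus WT for 183 of the probes, by gene (number of probes in parentheses), with filled circles for a limma adjusted p under 0.05, open circles for the others and a dotted line at a 2-fold decrease. 182 probes lie below 0 and 76 are filled, and RPS4X, RPS10 and RPL6 hold both filled probes and probes near 0. With quantile normalization RPL23, RPL26L1 and RPS28 change sign.

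Most genes were represented by several probes, and these were close to each other. Among the 31 genes with more than 1 probe the median range of the log2 fold change within a gene was 0.13. At 17 of the 37 genes no probe was called and at 6 all were, which were RPL5, RPS3A, RPL29 and RPL7L1, with several probes, and RPL36AL and RPL27, with 1 each. At the other 14 genes the probes differed in call. Probes of 1 gene share their RNA and are not replicates. Ribosomal protein genes have many processed pseudogenes, and whether a probe also binds RNA of a near-identical copy was not tested.

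The widest disagreement was that of RPS4X, whose 14 probes carry the same accession. At 10 of them the log2 fold change lay between -0.82 and -0.65 and each was called, and at the other 4 it lay between -0.18 and -0.05 and none was called. No probe lay in between. One of the 4 read 6.51 and 6.80 in KO against 6.88 and 6.54 in WT, so that the genotypes overlapped, whereas a called probe of like brightness read 6.25 and 6.35 in KO against 6.97 and 6.95 in WT. The mean signals of the 4 probes lay between 5.97 and 6.68, and those of the 10 between 4.89 and 7.26. In RPL6, 8 of 13 probes were lower and 1 stood at 0.08, with 6.81 and 6.99 in KO against 6.99 and 6.65 in WT.

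**Figure D4:**
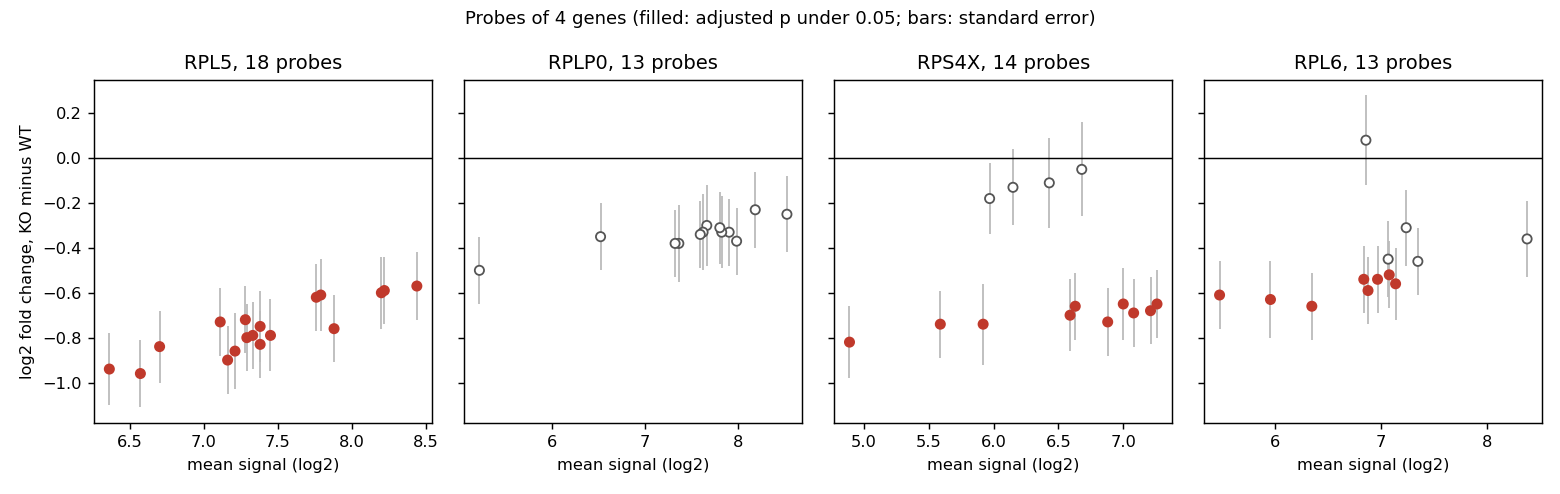
Log2 fold change of KO minus WT against the mean log2 signal of each probe of RPL5, RPLP0, RPS4X and RPL6, with the standard error as bars and filled circles for a limma adjusted p under 0.05. All 18 RPL5 probes are filled and become less negative as the signal rises, none of the 13 RPLP0 probes is filled, and the 14 RPS4X probes fall into 10 between -0.82 and -0.65 and 4 between -0.18 and -0.05.

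In some genes the brighter probes gave the smaller difference. Over the 18 RPL5 probes the mean signal and the log2 fold change had a Pearson's r of 0.88 and a Spearman's rho of 0.82. For the 13 RPLP0 probes r was 0.86 and rho 0.71, and for the 14 RPL7 probes r was 0.73 and rho 0.45. The 13 RPL6 probes had an r of 0.38 and a rho of 0.64. Over the 14 RPS4X probes r was 0.02 and rho 0.31. Over all 187 probes r was 0.20 and rho 0.33. These values are descriptions across probes that share the same 4 arrays, and probes of 1 gene share their target.

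Among the other probes too, the share called lower was smallest at the highest signals, so the family was set beside probes of like signal. Between signals of 8 and 10, the 49 ribosomal protein probes had a median of -0.37 and 14.3% were lower, while the 162 other probes had a median of -0.14 and 1.85% were lower. In the range from 7 to 8, 45.3% of 75 ribosomal protein probes were lower at a median of -0.50, beside 16.8% of 184 others at -0.17. From 6 to 7 the shares were 51.4% of 37 and 19.9% of 267, and from 5 to 6 they were 71.4% of 14 and 27.4% of 468. In each range the family had the lower median and the larger share called lower, and its own share was smallest among the brightest probes. The ranges were computed with the 75th percentile scaling alone. They were not computed with quantile normalization, where the family's share called lower was below that of all tested probes. The other probes may also hold unnamed ribosomal protein probes. The highest raw signal of a ribosomal protein probe was 50.5% of the saturation value.

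**Figure D5:**
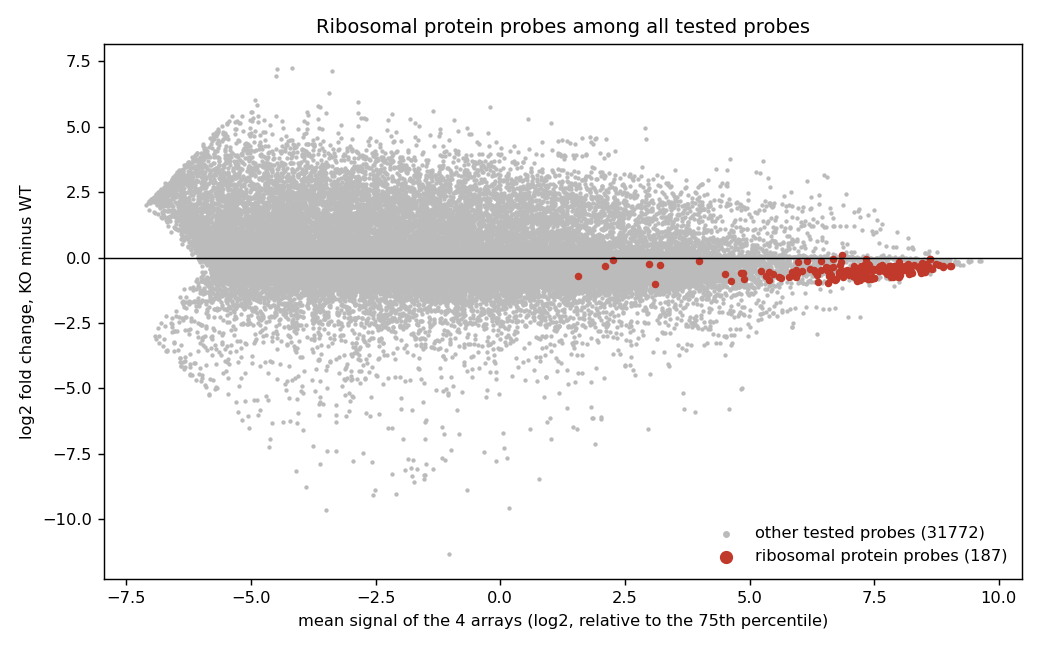
Log2 fold change of KO minus WT against the mean log2 signal of the 4 arrays for the 31959 tested probes, with the 187 ribosomal protein probes in red and the other 31772 in grey. The red probes have a median signal of 7.37 and form a narrow band around -0.49, while probes of lower signal spread from -11.34 to 7.23. Few grey probes at signals of 8 to 10 were called (1.85% lower, 0.617% higher), and the spread of grey probes of like signal was not computed.

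Other genes of translation and of ribosome assembly were described in the same way, each by its brightest probe. RACK1, a scaffold protein on the small subunit, read 7.44 and 7.42 in KO against 8.17 and 8.14 in WT (log2 fold change -0.72 ± 0.15, SE; adjusted p = 0.0199). The KO arrays were nearly equal and lay below both WT arrays, and the difference was larger than the median of the family. Of 8 ribosome assembly genes 4 were lower and 0 higher, with a median of -0.67, namely NOP56 of the box C/D snoRNPs at -1.12, BYSL at -0.99, DKC1, the pseudouridine synthase of the box H/ACA snoRNPs, at -0.89, and NIP7 at -0.83.

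Of 8 genes on the list of initiation factors and related proteins 3 were lower and 1 was higher, with a median of -0.36. EIF4A3, the helicase of the exon junction complex, fell by 1.04 (adjusted p = 0.00896), EIF4E2 by 0.68 and EIF1B by 0.67, whereas EIF4A2 rose by 0.54 (adjusted p = 0.0422), with 5.90 and 5.97 in KO against 5.38 and 5.40 in WT. Of 3 genes on the list of elongation factors and associated proteins, EEF1E1 was lower at -0.58, and EEF1A1 and TPT1, whose mRNAs carry the same kind of pyrimidine tract as those of ribosomal proteins, stood at -0.23 (adjusted p = 0.292) and -0.30 (adjusted p = 0.189). Of 7 genes of the mitochondrial ribosome MRPL16 was lower at -1.13, and the median was -0.39. EIF4EBP2 and MYC, the 2 measured genes on the list of regulators, stood at -0.46 and -0.34 and did not pass. The background of 22.6% lower and 25.4% higher holds for these counts too.

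Markers of several cell types differed between the genotypes in the same samples. All 12 measured thymocyte markers were lower in KO, with a median of -2.57, and their summed log2 level was 4.86 and 4.90 in KO against 7.42 and 7.92 in WT. RAG2, which cuts receptor genes in thymocytes, was well above background on only 1 KO array. All 6 markers of proliferation were lower, with a summed level of 3.81 and 3.96 in KO against 6.28 and 6.29 in WT. All 3 B cell markers were lower too, with a median of -3.47. All 7 macrophage markers were higher, with a summed level of 7.84 and 8.19 in KO against 5.64 and 5.88 in WT, as were all 3 of fibroblasts and all 3 of endothelium, at medians of 1.80 and 2.24. For epithelium 1 of 2 markers was higher and for adipocytes 3 of 4, and 2 of 4 muscle markers were lower. The part of these cell types in the ribosomal protein values was not tested.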

How the data were processed

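The authors deposited intensity values of 4 arrays, written by Agilent Feature Extraction 11.0.1.1 per the file headers. They are linear signals from which the background was subtracted, and no normalization between arrays had been applied. The flags for spots well above background and for outliers come from the same deposited output. A log2 table, also deposited by the authors, correlated with the log2 scanner signal at r of at least 0.9998 on each array and held 27970 of the probes used here, those well above background on all 4 arrays, quantile normalized. The methods describe Cy-3 and Cy-5, whereas labels and files hold Cy3 alone.

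Control spots and outlier spots were left out, which removed 6 of 43603 probes. Log2 signals were set relative to their array's 75th percentile, and repeated spots were averaged. A probe was tested if KO or WT, or both, had it well above background on each array, and these 31959 probes were fitted with lmFit and eBayes of limma 3.58.1 in R 4.3.3, with the Benjamini-Hochberg adjustment over all of them and a threshold of 0.05. Python 3.11.15 with pandas 2.3.3 and matplotlib 3.10.9 made tables and plots. RefSeq accessions (7111 probes) were named through the table of the Sscrofa11.1 assembly (6684 matched), used for names alone. Precision is limited by the number of arrays: for 1 gene, an exact two-sided permutation test cannot go below p = 0.333, and limma borrows the spread from all probes. The fit was tested on simulated data. Normexp (offset 50) used the median spot and background intensity.

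The members and lists were chosen with earlier results of these data known. Any member could be named. Described in full are the called genes, the 3 brightest and dimmest, paralogs, RPSA, the P proteins, RPL22 and the widest disagreements between probes of a gene, and of other lists the called genes, up to 6. The alternatives were other scalings, normexp, the deposited log2 table, other filters, the slide or replicate number as a block, an intensity trend, the methods' t-test and each array left out. Some single-gene values are not reported here, and 1 member gene is left out of the plots by gene, while the counts hold all members.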

Additional observations from a re-analysis of the deposited data

How the results depend on the processing

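As reported, 77 ribosomal protein probes and 8 genes were lower in KO, 0 were higher, and the median of the genes was -0.45. 0 probes were higher under any alternative run. With quantile normalization 22 probes and 1 gene were lower and the median was -0.22, in the deposited log2 values 28 probes, 1 gene and -0.22, and with median scaling 155, 31 and -0.72. Normexp called 109 probes and 15 genes, no filter on dim probes 34 and 1, and a limma fit with an intensity trend 133 and 22. The methods' t-test called 117 probes and 15 genes unadjusted, 20 and 0 with the Benjamini-Hochberg adjustment and 0 and 0 with Bonferroni. Leaving out each array in turn gave 0 to 70 probes, 0 to 8 genes and medians of -0.53 to -0.37. Deviations from the group means correlated over probes at -0.29 between arrays of the same replicate number. With 2 arrays per genotype, the 0.29 between arrays of the same slide is that value with its sign turned. Whether the replicate numbers pair the samples therefore cannot be told from it. The replicate block gave 5 probes and 0 genes, and the crossed pairing, which is the slide block, 60 and 4. Signs turned with quantile normalization and in the deposited table at RPL23 (0.12 in each), RPL26L1 (0.04) and RPS28 (0.11), and RPS28 ranged from -0.20 to 0.08 over the arrays left out, with 0.01 without KO replicate 1 and 0.08 without WT replicate 1. None of these was called. The cause of these changes was not tested. Other than with an array left out, 337 values of single genes kept direction and side of the threshold, 52 came to pass it and 49 no longer did. At signals of 8 to 10, 1.85% of other tested probes were lower, beside 22.6% of all, so the share over all probes is not that of probes as bright. Why fewer bright probes were called was not tested.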
